A study of Homo sapiens with 26 samples.

Results

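Interferon-stimulated genes were followed across a study of NOTCH3 signalling in MDA-MB-468 cells, an established human cell line from a basal-like, triple-negative breast cancer. The set was a list of 49 genes of the canonical interferon response, chosen with earlier results of these data known. Of these, 48 had a probe set that maps to that gene alone, out of 19775 genes measured in that way. STAT2 is not analysed here. Each gene was read from its brightest probe set, as log2 of the deposited intensity, on 26 Affymetrix arrays that fell into 9 groups. The design has an antagonism experiment of 8 arrays and an agonism experiment of 18 arrays, and groups were compared within an experiment.

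Antagonism plates were treated after 40 h of growth and harvested 24 h later. A4 cells (2 arrays) received 10 µg/ml of the anti-NOTCH3 antibody N3.A4 with 0.05% DMSO. DAPT cells (3 arrays) received 5 µM DAPT, a γ-secretase inhibitor that blocks the release of the active intracellular part of all Notch receptors, with 10 µg/ml control IgG. Control cells (3 arrays) received 10 µg/ml control anti-gD IgG with 0.05% DMSO.

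In the agonism experiment, every group except DMSO was first held in 5 µM DAPT for 16 h, and all plates then had 2 h in plain growth medium. A13 cells received 20 µg/ml of the NOTCH3 antibody N3.A13. JAG1-Fc bead cells received beads coated with the Notch ligand JAG1 fused to Fc, and Fc bead cells received beads coated with Fc. IgG cells received 20 µg/ml control IgG, so in them Notch signalling could resume after washout without an agonist. DAPT cells received 5 µM DAPT again, and DMSO cells received 0.05% DMSO and were never given DAPT. Each of these 6 groups had 3 arrays, harvested 24 h after washout. Whether the arrays within a group represent separate cultures is not given, so p-values measure the spread between these arrays, which may be technical. All cells are of 1 line, and a lower signal may come from fewer responding cells or from less RNA per cell, which bulk RNA cannot tell apart.

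Type I and III interferons signal through JAK kinases to a complex that contains STAT2 and IRF9 and binds the interferon-stimulated response element (ISRE) in promoters. Type II interferon acts through the GAS element and also induces IRF1. The genes so induced encode antiviral effectors (the IFIT, OAS and MX proteins), membrane factors that block viral entry or release (IFITM proteins, BST2), guanylate-binding proteins, the ubiquitin-like modifier ISG15 and chemokines. Many carcinoma lines transcribe part of this programme without added interferon. Notch receptors act through RBPJ, a different DNA-binding factor.

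The Notch readouts moved with the labels. OLFM4 rose by 3.98 ± 0.12 (log2, SE) with A13 against IgG and by 2.59 ± 0.12 with JAG1-Fc beads against Fc beads. The Notch target NRARP rose by 1.90 ± 0.07 and 1.01 ± 0.07 in the same comparisons. Of 6 Notch check genes, 6 were called higher with A13 and 4 with JAG1-Fc beads. The basal markers KRT5, KRT14 and EGFR lay between the 66.33 and 99.7 percentiles of all genes, and the hormone receptor genes PGR and ESR1 lay at 17.52 and 39.11 in the antagonism arrays and at 17.92 and 52.18 in the agonism arrays. Array medians over all probe sets were nearly level within an experiment, and replicate arrays were widest apart between control arrays 2 and 3 of the antagonism experiment. Their log2 difference had an SD of 0.32, against 0.13 for the closest pair of any group.

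No interferon was added in any group. In the agonism experiment 29 of the 48 lay above the median gene, and 6 lay below the lower quartile of genes. In the antagonism experiment the counts were 28 and 4. IFITM3, which restricts viral entry at endosomal membranes, was the brightest, at a mean log2 intensity of 13.33 in the agonism arrays. It was followed there by the secreted glycoprotein LGALS3BP at 11.55 and by IFITM2 at 11.12. ISG15 stood at 10.25. IFI44L at 5.01 and the chemokine CXCL11 at 4.56 were the dimmest. These are probe signals, which depend on the probe as well as on the transcript, so they describe how each gene lies on the array and set no gene's RNA against another's. The 7 interferon genes measured (IFNA1, IFNB1, IFNE, IFNG, IFNK, IFNL1 and IFNL2) lay between the 1.8 and 35.27 percentiles, and 0 of the 7 was called in any comparison.

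Promoter sequence was at hand for 40 of the 49 genes, in RefSeq's table for GRCh38.p14, from 250 bases before to 50 bases after an annotated start. The core shared by ISRE elements (GAAA, then 2 bases of any kind, then GAAA) was searched on both strands. It stood in the promoters of 27 of the 40 genes (67.5%), against 4.38% of the 27305 genes in the table and 3.57% of its 35116 promoters. The 3 upstream stretches printed here show the element in 2 genes that fell with both NOTCH3 agonists, ISG15 and BST2, and in IFITM3, which passed the test with neither. Capitals mark every match, on either strand, and overlapping matches run together.
ISG15 (chr1:1013247-1013496, plus strand): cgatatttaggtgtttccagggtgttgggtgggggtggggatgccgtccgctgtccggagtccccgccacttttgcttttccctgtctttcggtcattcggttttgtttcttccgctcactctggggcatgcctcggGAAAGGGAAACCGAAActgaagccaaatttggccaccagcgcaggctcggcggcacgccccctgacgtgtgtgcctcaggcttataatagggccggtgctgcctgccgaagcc
BST2 (chr19:17405631-17405880, minus strand): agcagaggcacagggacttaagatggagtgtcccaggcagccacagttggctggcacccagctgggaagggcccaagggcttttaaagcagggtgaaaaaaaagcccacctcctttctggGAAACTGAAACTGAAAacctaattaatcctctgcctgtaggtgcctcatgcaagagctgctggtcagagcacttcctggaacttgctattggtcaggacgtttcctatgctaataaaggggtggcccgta
IFITM3 (chr11:320861-321110, minus strand): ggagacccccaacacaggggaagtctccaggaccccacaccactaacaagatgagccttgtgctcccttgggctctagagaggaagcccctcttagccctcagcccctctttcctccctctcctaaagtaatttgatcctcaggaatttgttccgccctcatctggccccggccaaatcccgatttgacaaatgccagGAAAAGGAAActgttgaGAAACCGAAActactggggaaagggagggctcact
Each of the 3 stretches holds 2 matches. In ISG15 and BST2 the 2 matches overlap, and in IFITM3 they stand apart.

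The same core, with 10 bases on either side, is printed for 6 genes that differed in their values with the agonists. GBP1 and GBP3 are neighbouring paralogs that both fell. PARP9 and DTX3L are transcribed away from each other across 1 shared element, and of these PARP9 was called lower and DTX3L was not. SAMD9 was called higher with A13, and IFITM1 passed with neither agonist.
GBP1 (chr1:89065316-89065345, minus strand): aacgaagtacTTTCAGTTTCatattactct
GBP3 (chr1:89022845-89022874, minus strand): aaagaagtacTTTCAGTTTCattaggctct
PARP9 (chr3:122564322-122564351, minus strand): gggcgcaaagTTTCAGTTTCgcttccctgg
DTX3L (chr3:122564322-122564351, plus strand): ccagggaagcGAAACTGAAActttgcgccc
SAMD9 (chr7:93118096-93118125, minus strand): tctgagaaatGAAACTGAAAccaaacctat
IFITM1 (chr11:314024-314053, plus strand): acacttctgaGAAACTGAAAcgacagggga
All 6 windows hold the same core letters on one strand or the other, in genes that fell, rose or passed no agonist test.

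With the agonist antibody A13, the signal of many interferon-stimulated genes was lower. Against IgG, 18 of the 48 genes were called lower and 2 higher by limma at a Benjamini-Hochberg adjusted p under 0.05, taken over all 19775 genes. Over all genes, 9.02% were called lower and 5.68% higher (14.7% in all). The median change of the 48 was a log2 of -0.18, against -0.03 for all genes tested, and 41 of the 48 had a change below 0. On 24 genes all A13 arrays lay below all IgG arrays, which held for 18.2% of all genes, and on 3 genes all A13 arrays lay above (12.8% of all genes).

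JAG1-Fc beads, which share no array with the A13 comparison, gave an overlapping list. Against Fc beads, 17 genes were called lower and 0 higher, where 5.14% of all genes were called lower and 2.97% higher (8.11% in all). At an unadjusted p under 0.05, 22 of the 48 passed in either direction, as did 21% of all genes. The median change was -0.12, against 0.01 for all genes, and 40 of the 48 had a change below 0. On 25 genes all JAG1-Fc bead arrays lay below all Fc bead arrays (13.9% of all genes). In this list 14 genes were called lower with both agonists, which is 77.8% of the A13 list and 82.4% of the JAG1-Fc list. Among all genes, 839 were called lower with both, which is 47% and 82.5% of those lists.

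**Figure D1:**
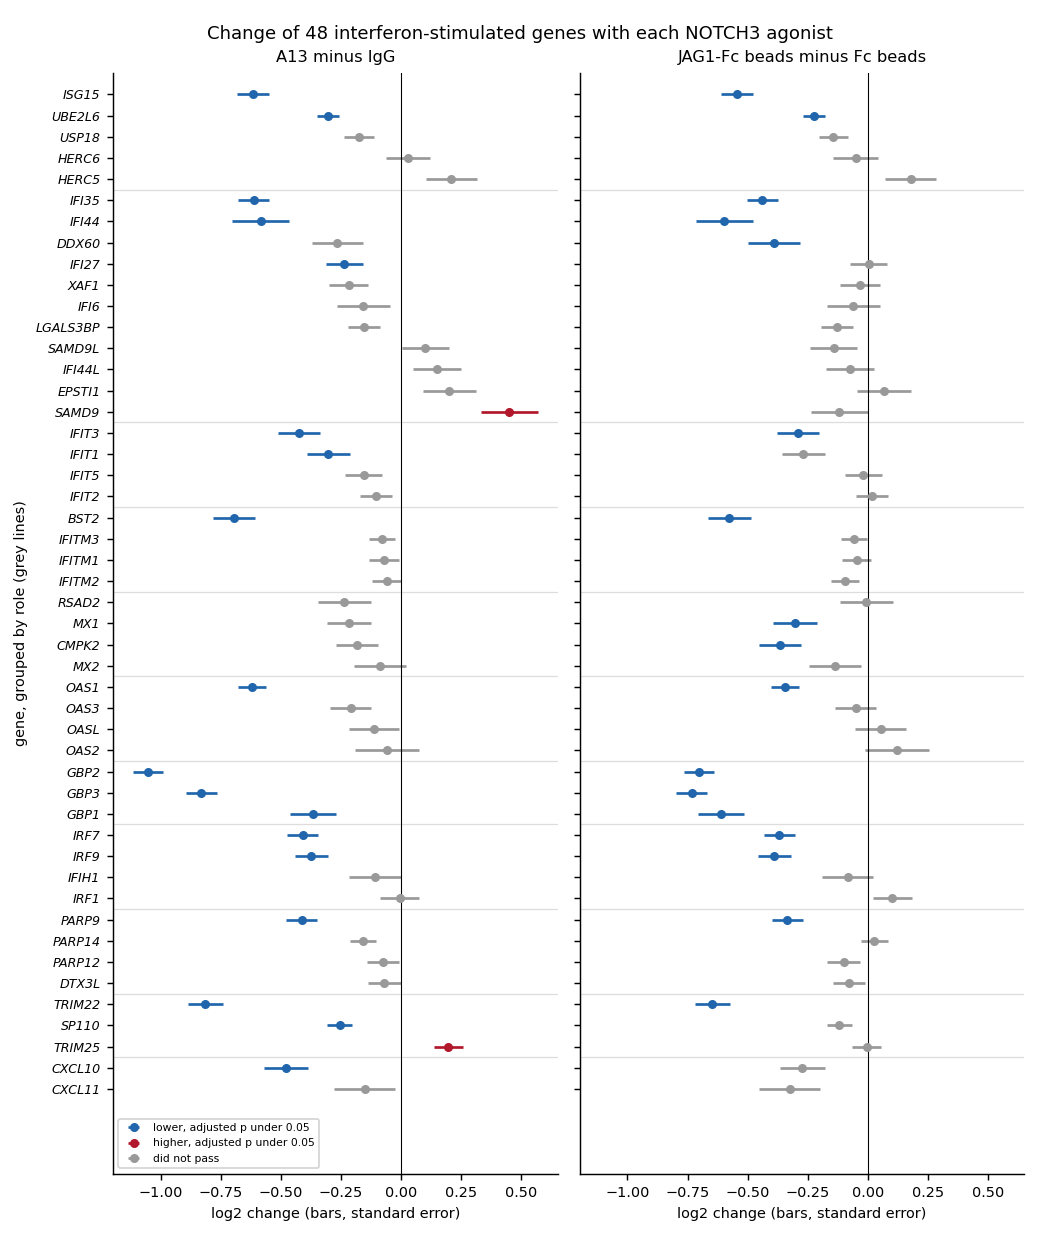
Log2 change and its standard error for each of 48 interferon-stimulated genes with A13 minus IgG (left) and JAG1-Fc beads minus Fc beads (right), 3 arrays per group, grouped by role. Blue points were called lower (18 and 17 genes), red points higher (2 and 0), and the guanylate-binding proteins GBP1, GBP2 and GBP3 were lower in both panels.

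All 3 guanylate-binding proteins, GTPases that attack membranes of intracellular pathogens, fell with both agonists. GBP2 read 9.03, 8.94 and 8.99 in A13 cells, against 9.97, 10.09 and 10.07 in IgG cells (log2 intensity, here and in the values that follow). It read 9.14, 9.15 and 9.17 in JAG1-Fc bead cells, against 9.88, 9.87 and 9.82 in Fc bead cells. Neither pair of groups overlapped. The change was -1.05 ± 0.06 (SE), a fold of 0.482, with A13 (adjusted p = 1.71e-09), and -0.70 ± 0.06, a fold of 0.614, with JAG1-Fc beads (adjusted p = 9.36e-07).

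GBP3 read 9.36, 9.39 and 9.36 in A13 cells, against 10.15, 10.21 and 10.25 in IgG cells. In JAG1-Fc bead cells it read 9.36, 9.5 and 9.55, against 10.28, 10.19 and 10.14 in Fc bead cells. Both agonist groups lay below their controls on every array. The changes were -0.83 ± 0.07 (adjusted p = 7.1e-08) and -0.73 ± 0.07 (adjusted p = 9.4e-07). GBP1 changed by -0.37 ± 0.10 with A13 (adjusted p = 0.0136) and by -0.61 ± 0.10 with JAG1-Fc beads (adjusted p = 0.000472). With 1 array left out of the A13 comparison, GBP1 had an adjusted p of up to 0.0729. Of its 3 other probe sets, 2 also fell with each agonist, and the remaining, dim one did not pass. The 3 paralogs are alike in sequence, so probes may respond to more than 1 of them.

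TRIM22, an antiviral ubiquitin ligase, read 8.17, 8.21 and 8.42 in A13 cells, against 9.06, 9.05 and 9.14 in IgG cells. It read 8.11, 8.21 and 8.15 in JAG1-Fc bead cells, against 8.94, 8.80 and 8.67 in Fc bead cells. No array of an agonist group reached its control. The changes were -0.81 ± 0.07 (adjusted p = 3.5e-07) and -0.65 ± 0.07 (adjusted p = 1.51e-05). SP110, a nuclear body protein, was called lower with A13 alone, at -0.26 ± 0.05 (adjusted p = 0.00197). TRIM25, the ubiquitin ligase that activates the RNA sensor RIG-I, was called higher with A13 at 0.20 ± 0.06 (adjusted p = 0.038), and that call was lost when single arrays were left out.

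Among the membrane factors, BST2 was called lower with both agonists and the 3 IFITM genes with neither. BST2 (tetherin), which holds budding virions at the cell surface, read 7.44, 7.41 and 7.69 in A13 cells, against 8.31, 8.12 and 8.19 in IgG cells. It read 7.45, 7.67 and 7.63 in JAG1-Fc bead cells, against 8.17, 8.24 and 8.07 in Fc bead cells. Its groups did not overlap with either agonist, and the changes were -0.70 ± 0.09 (adjusted p = 2.23e-05) and -0.58 ± 0.09 (adjusted p = 0.000385). The IFITM genes had changes below 0 with both agonists, between -0.10 and -0.05. IFITM1 read 10.74, 10.84 and 10.81 in A13 cells, against 10.92, 10.79 and 10.90 in IgG cells, which overlap. IFITM3 read 13.39, 13.40 and 13.44 in A13 cells, against 13.51, 13.47 and 13.49 in IgG cells, apart but not called (adjusted p = 0.41). IFITM2 read 11.14, 11.13 and 11.13 in JAG1-Fc bead cells, against 11.18, 11.30 and 11.20 in Fc bead cells, also apart and not called (adjusted p = 0.414). The difference between BST2 and the IFITM genes was not tested.

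The ISG15 system was lower at the modifier and at its conjugating enzyme. ISG15 read 9.76, 9.79 and 9.89 in A13 cells, against 10.48, 10.42 and 10.40 in IgG cells. It read 9.70, 9.78 and 9.82 in JAG1-Fc bead cells, against 10.32, 10.42 and 10.18 in Fc bead cells. Every agonist array lay below every control array. The changes were -0.62 ± 0.07 (a fold of 0.653, adjusted p = 3.34e-06) and -0.54 ± 0.07 (a fold of 0.686, adjusted p = 3.58e-05). UBE2L6, the E2 enzyme that transfers ISG15, fell by 0.30 and by 0.22 on the log2 scale. The other 3 genes of the system, the ligase HERC5, its relative HERC6 and the ISG15 protease USP18, passed with neither agonist.

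OAS1, which makes the 2′,5′-oligoadenylates that activate RNase L, was the one member of its family called with the agonists. It read 7.91, 7.88 and 7.98 in A13 cells, against 8.56, 8.53 and 8.54 in IgG cells. In JAG1-Fc bead cells it read 7.88, 8.01 and 7.97, against 8.23, 8.34 and 8.33 in Fc bead cells. The groups did not overlap in either comparison. The changes were -0.62 ± 0.06 (adjusted p = 5.72e-07) and -0.34 ± 0.06 (adjusted p = 0.000952), and a further OAS1 probe set also fell with both agonists, by 0.64 and 0.52. OAS2, OAS3 and OASL passed with neither. The difference between OAS1 and its relatives was not tested.

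Of the IFIT family, which binds viral RNA, IFIT3 fell with both agonists. IFIT3 read 8.31, 8.24 and 8.41 in A13 cells, against 8.76, 8.65 and 8.83 in IgG cells, without overlap. Its changes were -0.43 ± 0.09 (adjusted p = 0.002) and -0.29 ± 0.09 (adjusted p = 0.0446), and the call with JAG1-Fc beads was lost in 4 of its 7 other settings. IFIT1 read 7.59, 7.44 and 7.55 in A13 cells, against 7.76, 7.80 and 7.92 in IgG cells. It read 7.54, 7.79 and 7.38 in JAG1-Fc bead cells, against 7.81, 7.81 and 7.89 in Fc bead cells. Each pair was free of overlap, and the change passed with A13 (-0.30 ± 0.09, adjusted p = 0.0287), though not on leaving out any of 4 single arrays. IFIT2 and IFIT5 did not pass.

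IRF9 and IRF7, transcription factors of the pathway, were lower with both agonists, and IRF1 was not called. IRF9, the DNA-binding partner of STAT2, read 9.47, 9.49 and 9.45 in A13 cells, against 9.78, 9.77 and 9.98 in IgG cells. It read 9.56, 9.61 and 9.67 in JAG1-Fc bead cells, against 10.01, 9.94 and 10.05 in Fc bead cells. The changes were -0.37 ± 0.07 (adjusted p = 0.000955) and -0.39 ± 0.07 (adjusted p = 0.0014). IRF7, which amplifies interferon production, read 9.32, 9.34 and 9.33 in A13 cells, against 9.72, 9.83 and 9.68 in IgG cells. In JAG1-Fc bead cells IRF7 read 9.46, 9.38 and 9.60, against 9.92, 9.83 and 9.79 in Fc bead cells. Agonist and control arrays were apart for both genes in both comparisons, and IRF7 changed by -0.41 ± 0.06 (adjusted p = 0.000182) and -0.37 ± 0.06 (adjusted p = 0.00113). IRF1, the factor induced through GAS elements, read 9.78, 10.05 and 10.04 in A13 cells, against 9.98, 10.11 and 9.80 in IgG cells, which overlap. IFIH1, a sensor of double-stranded RNA, passed with neither.

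Other effectors varied among themselves. IFI35 fell by 0.61 and 0.44 and IFI44 by 0.58 and 0.60 with A13 and JAG1-Fc beads. The dimmer second probe set of IFI44 changed by -0.02 and 0.06, so the fall of this gene rests on 1 probe set. IFI27, a mitochondrial and nuclear-envelope protein that is among the most inducible interferon-stimulated genes, read 6.12, 6.14 and 6.18 in A13 cells, against 6.41, 6.31 and 6.43 in IgG cells. That change of -0.24 ± 0.08 was called (adjusted p = 0.0465), and it was lost when any 1 of the 6 arrays was left out. IFI6, a mitochondrial protein, read 6.84, 6.33 and 6.68 in A13 cells, against 6.68, 6.72 and 6.91 in IgG cells, with overlap and no call.

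SAMD9, a growth-restraining antiviral factor, was called higher with A13. It read 6.83, 6.87 and 6.81 in A13 cells, against 6.10, 6.60 and 6.46 in IgG cells, a change of 0.45 ± 0.12 (adjusted p = 0.0131). The A13 arrays lay above all IgG arrays, and the low IgG array 1 carried the call, since without it the adjusted p was 0.0913. With JAG1-Fc beads SAMD9 read 6.02, 6.26 and 6.31, against 6.50, 6.18 and 6.27 with Fc beads, which overlap.

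MX1, a dynamin-like GTPase that traps viral nucleocapsids, was called lower with JAG1-Fc beads. It read 8.98, 9.0 and 9.17 there, against 9.41, 9.44 and 9.21 in Fc bead cells, a change of -0.30 ± 0.09 (adjusted p = 0.0474). That call was lost in 2 of 7 other settings and in 4 of the 6 fits that left out 1 array. MX1 read 9.03, 8.97 and 9.01 in A13 cells, against 9.11, 9.34 and 9.22 in IgG cells. Neither pair overlapped, and with A13 the change did not pass. CMPK2, a mitochondrial nucleotide kinase, and DDX60, a helicase, were likewise called with JAG1-Fc beads, at -0.37 ± 0.09 and -0.39 ± 0.11. The DDX60 call was lost in 1 of 5 other settings and in 4 of the 6 fits that left out 1 array, and the CMPK2 call in 2 of those 6. CXCL10, the chemokine that recruits CXCR3-bearing T cells, read 6.55, 6.62 and 6.67 in A13 cells, against 7.26, 7.0 and 7.03 in IgG cells. It fell by 0.48 (SE 0.09, adjusted p = 0.00141). Its values were 6.87, 6.86 and 6.90 in JAG1-Fc bead cells, against 7.06, 7.13 and 7.26 in Fc bead cells, apart but without a call. Of the ADP-ribosylation genes, PARP9 was called lower with both agonists, at -0.41 ± 0.06 and -0.33 ± 0.06, while its promoter partner DTX3L, PARP12 and PARP14 passed with neither. The second probe set of PARP9 changed by 0.01 and by less than 0.01, so this call too rests on 1 probe set.

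**Figure D2:**
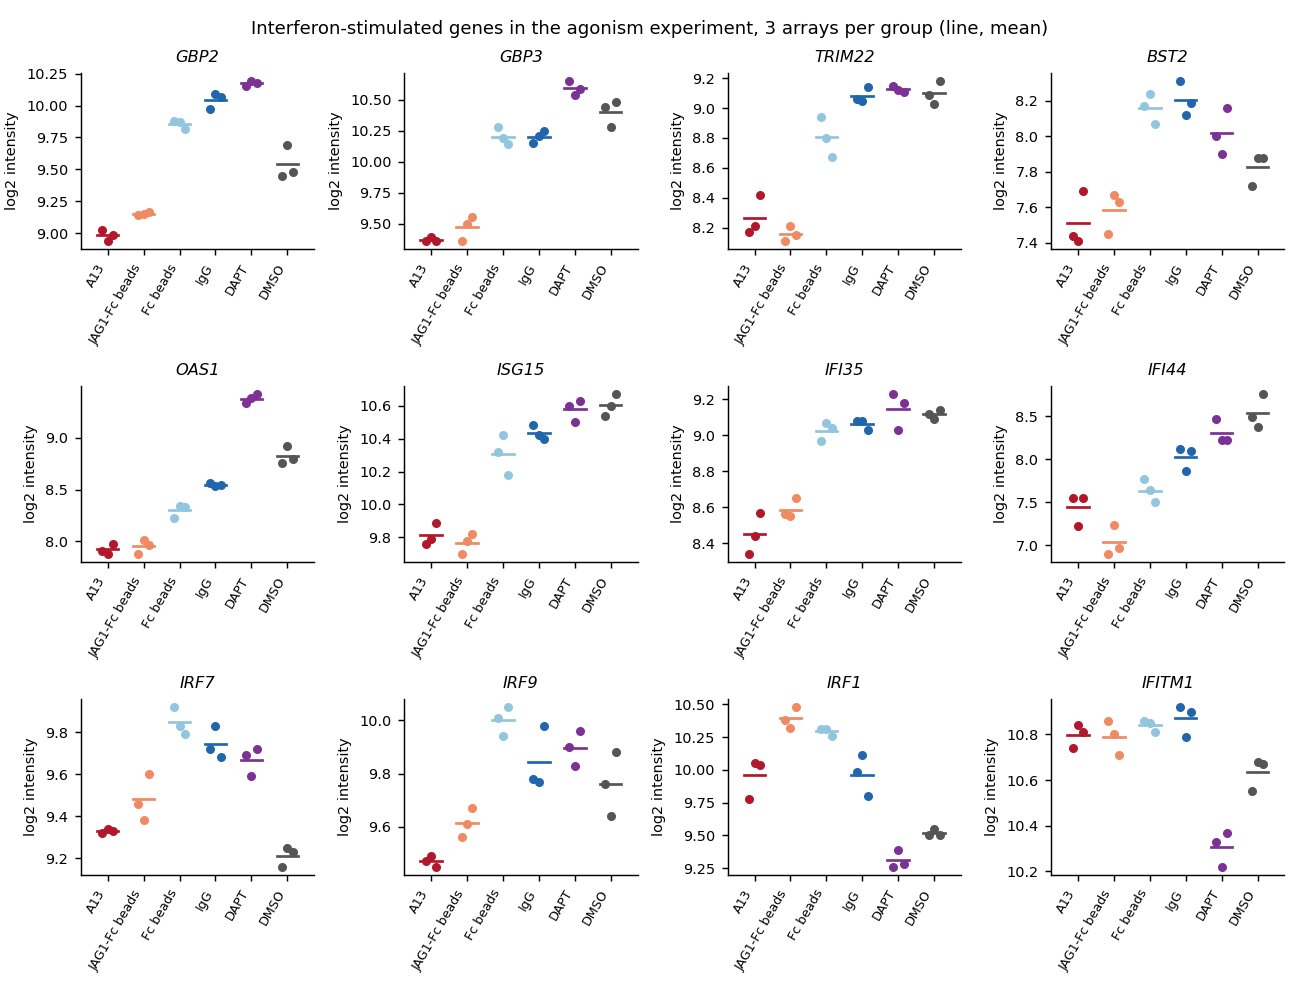
Log2 intensity of 12 interferon-stimulated genes on each array of the agonism experiment (points, 3 arrays per group; lines, means). GBP2, GBP3, TRIM22, BST2, OAS1, ISG15, IFI35 and IRF7 lie lower in A13 and JAG1-Fc bead cells than in IgG and Fc bead cells on every array, while IFITM1 and IRF1 overlap between A13 and IgG cells.

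The agonists were next set against each other. The difference of their effects, A13 minus IgG less JAG1-Fc beads minus Fc beads, was called in 0 of the 48 genes by limma, against 0.182% of all genes (0.0657% higher, 0.116% lower). At an unadjusted p under 0.05 the count was 6 of the 48, and 5.93% of all genes. The 95% interval of the difference lay within -0.5 to 0.5 for 40 of the 48. The difference was largest in SAMD9, at 0.57 with an interval of 0.22 to 0.92 (adjusted p = 0.365). For GBP2 it was -0.35, with an interval of -0.53 to -0.16 (adjusted p = 0.181), and for OAS1 the difference of -0.28 had an interval of -0.45 to -0.10 (adjusted p = 0.395). For ISG15 it was -0.07, with an interval of -0.27 to 0.13. A list difference such as SP110 called with A13 alone is thus not shown to be a difference between agonists.

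Between Fc beads and IgG, 2 of the 48 genes (4.17%) were called. IRF1 was called higher (0.33 ± 0.08, adjusted p = 0.0398) and OAS1 lower (-0.25 ± 0.06, adjusted p = 0.0348), 1 gene in each direction, where 1.64% of all genes were called higher and 0.44% lower (2.08% in all). IRF1 read 10.31, 10.31 and 10.26 in Fc bead cells, against 9.98, 10.11 and 9.80 in IgG cells. Both calls were lost when only these 2 groups entered the fit. At an unadjusted p under 0.05 by limma, 11 of the 48 passed in either direction, as did 14.6% of all genes.

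The next comparison asked what changed on release from DAPT without an added agonist. IgG cells also received 20 µg/ml control IgG and DAPT cells none, so removal of DAPT and the added IgG cannot be told apart. After washout (IgG against DAPT), 6 genes were higher and 3 lower, where 4.15% of all genes were called higher and 5.62% lower (9.77% in all). The largest rises were in IRF1 and the IFITM genes. IRF1 read 9.98, 10.11 and 9.80 in IgG cells, against 9.26, 9.39 and 9.28 in DAPT cells, a rise of 0.65 ± 0.08 (a fold of 1.57, adjusted p = 3.49e-05). IFITM1 read 10.92, 10.79 and 10.90 in IgG cells, against 10.33, 10.22 and 10.37 in DAPT cells, a rise of 0.56 ± 0.06 (adjusted p = 7.95e-06). Neither gene's groups overlapped.

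IFITM2 and IFITM3 rose on washout by 0.33 ± 0.06 and 0.36 ± 0.05 (adjusted p = 0.00141 and 0.000254). Both are read from probe sets of a class that can cross-hybridise, and the IFITM genes are close paralogs, so these 2 values may not be independent. PARP14 and UBE2L6 rose by 0.22 and 0.20. The PARP14 call held in 5 of 7 other settings and in 4 of the 6 fits that left out 1 array. Its second probe set had a change of the opposite sign, so this rise rests on 1 probe set. The UBE2L6 call held in 6 of 7 other settings and in all 6 of those fits. OAS1 was lower after washout. It read 8.56, 8.53 and 8.54 in IgG cells, against 9.33, 9.38 and 9.42 in DAPT cells, and fell by 0.83 (SE 0.06, a fold of 0.562, adjusted p = 5.19e-08). GBP3 fell by 0.39 and PARP9 by 0.23. The PARP9 call was lost in 3 of 7 other settings and in 5 of the 6 fits that left out 1 array, and its second probe set changed by 0.02 (adjusted p = 0.902).

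DAPT against DMSO, which shares the DAPT arrays with the washout comparison, gave 7 genes higher and 4 lower, where 12.4% of all genes were higher and 8.31% lower (20.7% in all). GBP2 read 10.15, 10.19 and 10.18 in DAPT cells, against 9.45, 9.69 and 9.48 in DMSO cells, a rise of 0.63 ± 0.06 (adjusted p = 2.72e-06). OAS1 read 9.33, 9.38 and 9.42 in DAPT cells, against 8.76, 8.92 and 8.79 in DMSO cells, a rise of 0.55 ± 0.06 (adjusted p = 6.68e-06). IRF7 read 9.69, 9.59 and 9.72 in DAPT cells, against 9.16, 9.25 and 9.23 in DMSO cells, a rise of 0.45 ± 0.06. DAPT arrays lay above DMSO arrays for all 3 genes.

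MX1 and HERC6 rose by 0.31 and 0.30, and LGALS3BP and GBP3 by 0.20 and 0.19. Of the 6 fits that left out 1 array, MX1 and HERC6 were called in 3 each, LGALS3BP in 2 and GBP3 in 1. With the mean of its probe sets, HERC6 had an adjusted p of 0.615. IFIT3 (-0.41 ± 0.09), IFITM1 (-0.33 ± 0.06), IFIT1 (-0.33 ± 0.09) and IFIT5 (-0.25 ± 0.08) fell. The IFIT1 call held in 3 and the IFIT5 call in 2 of those 6 fits. IFIT1 read 7.53, 7.71 and 7.51 in DAPT cells, against 7.84, 7.86 and 8.02 in DMSO cells, without overlap. The members called higher numbered 3 without DAPT array 3 and 4 without DMSO array 1 or DMSO array 3, and those called lower numbered 2 without DAPT array 3 or DMSO array 3. The share of all genes called in those fits is not given here, so these counts are no result about the members. Of the 14 genes that were lower with both agonists, GBP2, GBP3, IRF7 and OAS1 were called higher with DAPT, IFIT3 was called lower and the other 9 were not called. Of all genes, 12.4% were called higher and 8.31% lower with DAPT. The same share among the 839 genes lower with both agonists is not given here, so this split is no result about the 14 genes.

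**Figure D3:**
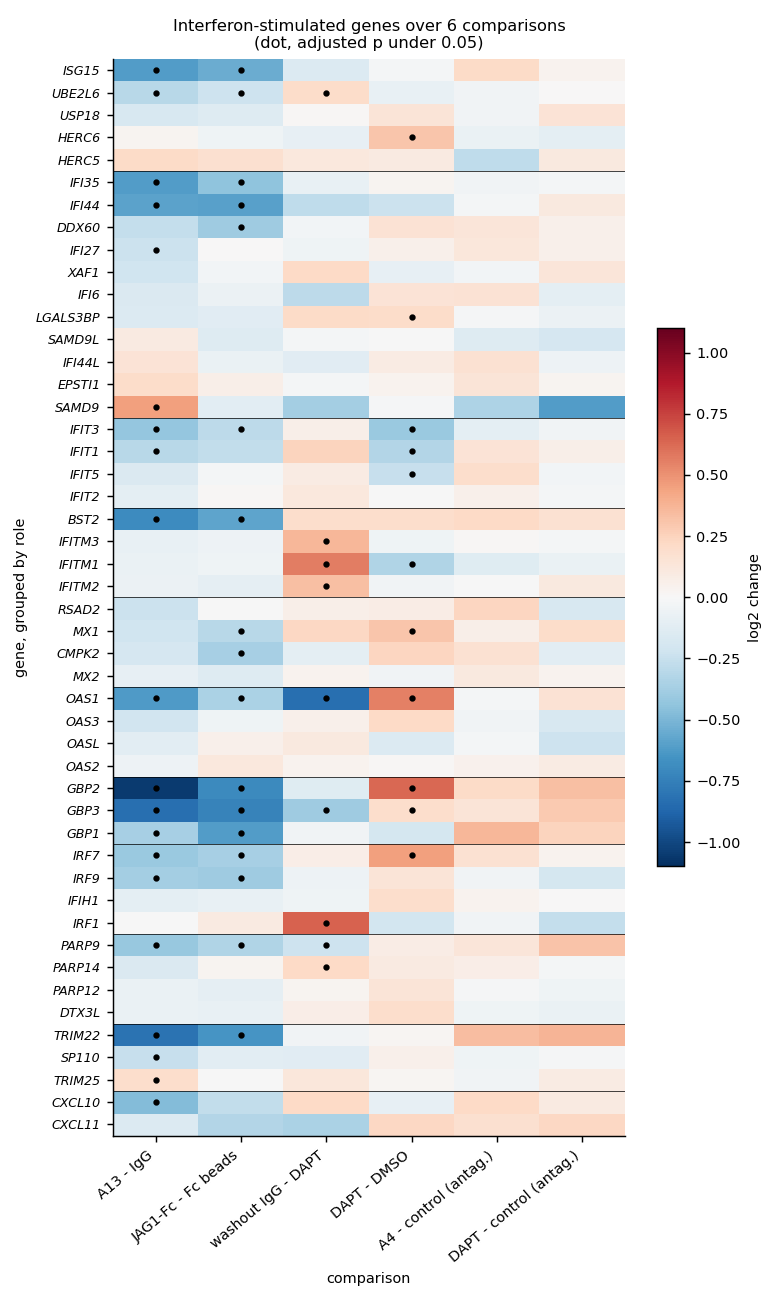
Log2 change of the 48 genes (rows, grouped by role) in 6 comparisons (columns), with a dot where the adjusted p was under 0.05. Of the dots, 20 lie in the A13 column and 17 in the JAG1-Fc column, and none lies in the 2 antagonism columns; neighbouring columns that share a group of arrays are not independent.

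IgG cells also differed from DMSO cells that had never seen DAPT. Here 12 genes were higher and 5 lower, where 17.9% of all genes were higher and 12.6% lower (30.6% in all). MX1 rose by 0.53 ± 0.09 (9.11, 9.34 and 9.22 in IgG cells, against 8.53, 8.85 and 8.70 in DMSO cells), IRF7 by 0.53 ± 0.06 and GBP2 by 0.50 ± 0.06. BST2 rose by 0.38 ± 0.09. IFI44, SAMD9, IFIT3, OAS1 and GBP3 fell. Of the 6 fits that left out 1 array, SAMD9 was called in 4 and GBP3 in 2. Both were lost when only the groups compared entered the fit. The IFI44 call was lost without probe sets of the _s_at class (adjusted p = 0.191 by limma). The plates so compared had unequal histories, DAPT for 16 h and then control IgG against DMSO throughout, and the part of each step cannot be told apart.

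Against this DMSO baseline, A13 cells had 10 genes higher and 19 lower, where 15.7% of all genes were higher and 15.2% lower (30.9% in all). This comparison uses the same A13 arrays as the one against IgG. A13 cells had been held in DAPT for 16 h and DMSO cells had not, so the part of each step cannot be told apart. IRF7 read 9.32, 9.34 and 9.33 in A13 cells, against 9.16, 9.25 and 9.23 in DMSO cells, apart but not called. IFI44 fell by 1.1 against DMSO, a call that was lost without probe sets of the _s_at class (-0.22 on its other probe set, adjusted p = 0.151). GBP3 fell by 1.03, OAS1 by 0.90, ISG15 by 0.79 and IFIT3 by 0.77. BST2 read 7.44, 7.41 and 7.69 in A13 cells, against 7.72, 7.88 and 7.88 in DMSO cells, and fell as well. IRF1 rose by 0.44 and IFITM3 by 0.23. In IgG cells against DMSO cells, without an agonist, they rose by 0.45 and 0.31.

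Against cells kept in DAPT, 20 genes were lower and 6 higher with A13, where 16.2% of all genes were lower and 12% higher (28.2% in all). With JAG1-Fc beads 18 were lower and 8 higher, where 16.1% were lower and 17% higher (33.2% in all). These comparisons share the DAPT arrays, and in both of them removal of DAPT and the added agonist cannot be told apart. OAS1 fell by 1.45 with A13 and by 1.42 with JAG1-Fc beads. IRF1 rose by 0.64 with A13 and by 1.08 with JAG1-Fc beads, the largest rise of any member with either agonist against DAPT. Without an agonist, in IgG cells against DAPT cells, IRF1 rose by 0.65 and OAS1 fell by 0.83.

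The order of the 6 agonism groups therefore differed by gene. GBP3 and OAS1 were highest in DAPT cells, DMSO cells came next, and A13 and JAG1-Fc bead cells were lowest. OAS1 in A13 cells (7.91, 7.88 and 7.98) and JAG1-Fc bead cells (7.88, 8.01 and 7.97) overlapped. GBP2 was also lowest with the agonists, but DMSO cells (9.45, 9.69 and 9.48) were below Fc bead cells (9.88, 9.87 and 9.82). IRF7 and IRF1 were lowest outside the agonist groups, IRF7 in DMSO cells and IRF1 in DAPT cells (9.26, 9.39 and 9.28).

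In the antagonism experiment no member was called. With A4, 0 of the 48 were called by limma, against 0.101% of all genes (0.0455% higher, 0.0556% lower). At an unadjusted p under 0.05 the count was 5, and 9.28% of all genes. The median change was 0.04. GBP1 (0.36 ± 0.11), TRIM22 (0.34 ± 0.11) and ISG15 (0.21 ± 0.07) were among the 5, with adjusted p-values of 0.318, 0.336 and 0.36. ISG15 read 11.02 and 11.02 in A4 cells, against 10.79, 10.85 and 10.79 in control cells, apart but not past the threshold. On 9 genes both A4 arrays lay above all control arrays (12.6% of all genes) and on 2 below (12.3%). Of 6 Notch check genes, 4 were called lower with A4.

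DAPT in that experiment also gave 0 calls among the 48 by limma, against 0.354% of all genes (0.202% higher and 0.152% lower), with 10 genes at an unadjusted p under 0.05 (13% of all genes). TRIM22 read 9.86, 9.90 and 10.13 in DAPT cells, against 9.57, 9.46 and 9.73 in control cells, a difference of 0.38 ± 0.10 (adjusted p = 0.147). GBP3 differed by 0.29 ± 0.08 (adjusted p = 0.181), PARP9 by 0.31 ± 0.08 (adjusted p = 0.141) and IRF1 by -0.26 ± 0.08 (adjusted p = 0.236). The arrays of these 4 genes did not overlap between DAPT and control cells. Among the 48, all DAPT arrays lay above all control arrays on 9 genes (8.73% of all genes) and below on 2 (9.15%). GBP2 read 9.70, 9.79 and 9.98 in DAPT cells, against 9.60, 9.21 and 9.67 in control cells. Control array 2 was the lowest for GBP2. SAMD9 read 7.83, 7.85 and 8.18 in DAPT cells, against 8.63, 8.06 and 9.0 in control cells, which overlap through control array 2. Its difference of -0.61 ± 0.21 did not pass (adjusted p = 0.26), and without that array it was the 1 member called, at -0.86 ± 0.13 (adjusted p = 0.00814). The share of all genes called in the fit without control array 2 is not given here, so that count is no result about these genes. In simulated arrays with the spread of this experiment, the same fit recovered 49% of genes changed by a log2 of 0.5 with DAPT and 47% with A4, and 98% and 87% of those changed by 1. The changed genes were a single random draw from all genes, with independent noise, so these are not recovery rates for the 48 genes.

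**Figure D4:**
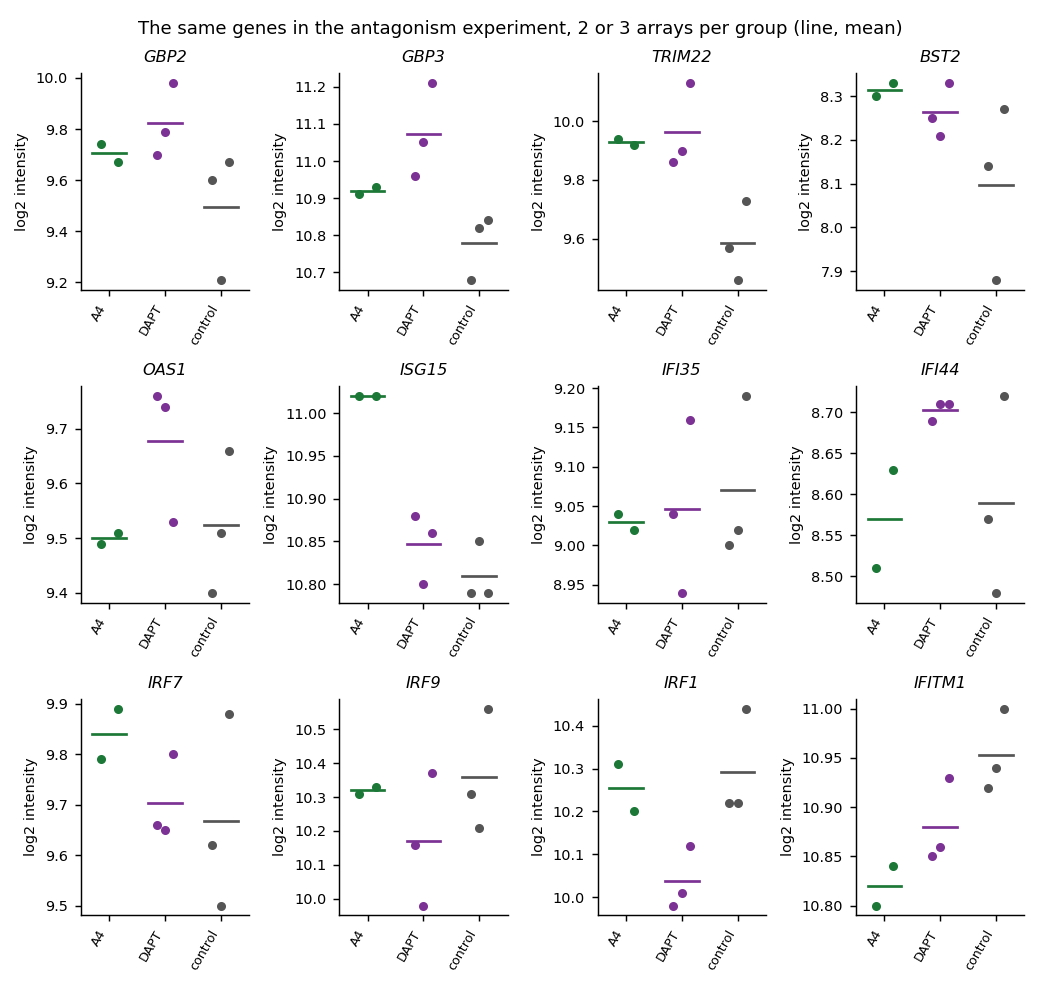
Log2 intensity of the same 12 genes on each array of the antagonism experiment (points; 2 A4 arrays, 3 DAPT arrays and 3 control arrays; lines, means). TRIM22 and GBP3 lie higher in A4 and DAPT cells than in control cells on every array, with no adjusted p under 0.05. Of all genes, 12.6% lay higher on every array with A4 and 8.73% with DAPT.

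The response to DAPT was then compared between the experiments, which differ in culture density, length of treatment, washout and control IgG. DAPT and control cells of the antagonism experiment received 10 µg/ml control IgG, and DAPT and DMSO cells of the agonism experiment received none. The difference, the antagonism effect less the agonism effect, was called lower in 2 of the 48 genes and higher in 0, where 3.27% of all genes were lower and 2.85% higher (6.12% in all). These were IRF7 (-0.42, adjusted p = 0.0305) and OAS1 (-0.40, adjusted p = 0.022). OAS1 read 9.76, 9.74 and 9.53 in DAPT cells of the antagonism experiment, against 9.40, 9.51 and 9.66 in control cells, which overlap. Both calls were lost when only the 4 groups of the contrast entered the fit. Without control array 2 of the antagonism experiment, 10 genes were called lower. The share of all genes called in that fit is not given here, so this count is no result about these genes.

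Other genes of the pathway were counted from fixed lists. Of 20 genes of interferon signalling, 7 were lower and 1 higher with A13, and 4 lower and 0 higher with JAG1-Fc beads. Of all genes, 9.02% were lower and 5.68% higher with A13, and 5.14% lower and 2.97% higher with JAG1-Fc beads. STING1, the adaptor of cytosolic DNA sensing, read 8.92, 9.07 and 9.20 in A13 cells, against 10.01, 9.88 and 9.88 in IgG cells, and fell by 0.86 (adjusted p = 2.06e-07). It fell by 0.50 with JAG1-Fc beads. TLR3, the kinase JAK2 and the receptor chain IL10RB also fell with both agonists, by 0.39, 0.29 and 0.37 with A13. The type I receptor chain IFNAR1 fell by 0.26 with A13, the feedback inhibitor SOCS1 by 0.28 and IRF2 by 0.21, while the type II receptor chain IFNGR1 rose by 0.36 (all with A13).

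Of 26 further interferon-stimulated genes outside the set, 2 were higher and 2 lower with A13, and 1 was higher and 1 lower with JAG1-Fc beads. The share called lower was 7.69% with A13, against 9.02% of all genes, and 3.85% with JAG1-Fc beads, against 5.14% of all genes. PLSCR1 rose with both agonists, by 0.36 and 0.21, and LAMP3 rose by 0.46 with A13. NMI and APOL6 fell with A13 by 0.22 and 0.30, and APOL1 fell with JAG1-Fc beads by 0.24. The median changes of this list were -0.08 and -0.07, between those of the 48 genes and of all genes.

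Of 6 markers of other cell types measured, CD14 was called lower with A13 (-0.72 ± 0.08, adjusted p = 4.15e-06), and the other 5 were not. The summed intensity of the 6 ran from 2356 to 2469 in A13 cells, against 2809 to 2940 in IgG cells, and from 2413 to 2638 in JAG1-Fc bead cells, against 2554 to 2724 in Fc bead cells. It ran from 2383 to 2686 in DMSO cells and from 2279 to 2424 in DAPT cells. IgG cells thus had the highest sums of the 6 agonism groups, and A13 cells overlapped DMSO and DAPT cells. In the agonism arrays the 6 lay at the 7.49 (PTPRC), 41.88 (COL1A2), 49.74 (CD3E), 62.45 (PECAM1), 72.81 (COL1A1) and 77.51 (CD14) percentiles of genes. The part of these markers in the changes above was not tested.

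Promoter letters were set beside the agonist calls. The ISRE core stood in 7 of the 11 genes lower with both agonists that had a promoter (63.6%), in 5 of 7 lower with 1 agonist (71.4%), and in 15 of 21 lower with neither (71.4%). The GAS core TTCNNNGAA stood in 5 of 11 (45.5%), 4 of 7 (57.1%) and 5 of 21 (23.8%), against 9.38% of all genes in the table. The letters TGGGAA, bound by RBPJ, stood in 3 of 11 (27.3%), 1 of 7 (14.3%) and 2 of 21 (9.52%), against 28.1% of all genes. Matches of the 3 motifs were counted on both strands and may overlap. They describe letters in a 300-base window and say nothing of which factor is bound.

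**Figure D5:**
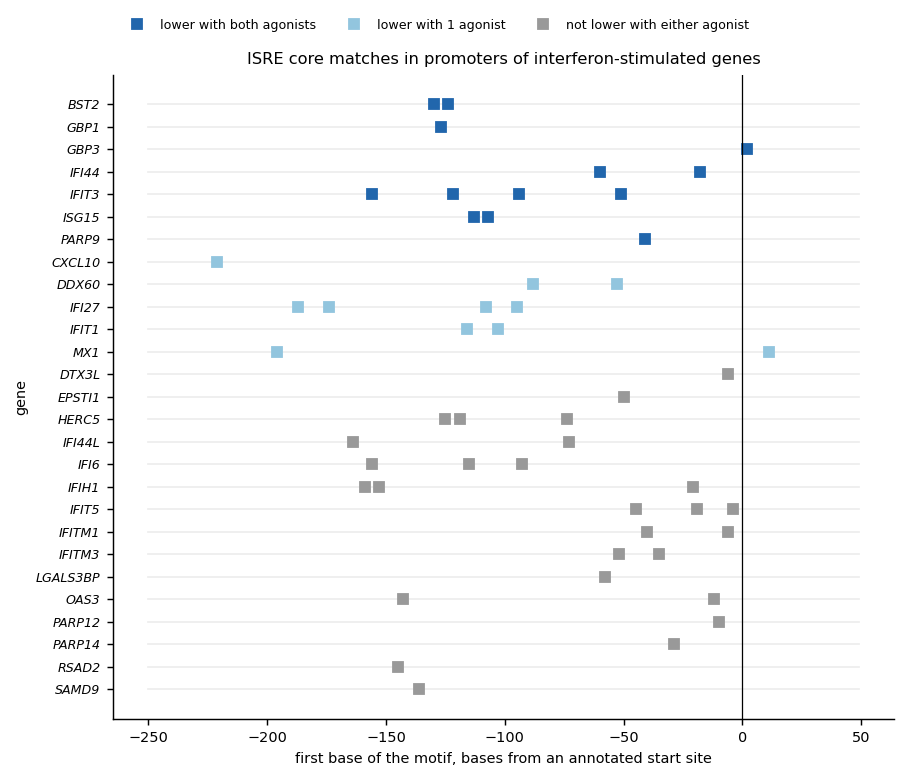
First base of each ISRE core match, in bases from an annotated start site, in the promoters of 27 interferon-stimulated genes, coloured by whether the gene was called lower with both agonists, with 1 or with neither (a gene with several start sites is drawn on 1 row). Genes of all 3 classes hold matches, most of them within 200 bases before the start.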

How the data were processed

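RNA from MDA-MB-468 cells was hybridised to Affymetrix arrays, 1 array per sample. The authors deposited 1 table of 54675 probe sets by 26 arrays whose values are intensity on a linear scale (7.12 to 32597.2). Per the submitters' processing notes, the tools were RMA and R 2.10, with neither role nor order stated. A log2 scale had been assumed when the design was written, so log2 of the deposited intensity was taken and no other normalization was added. Of the probe sets, 41097 had 1 gene symbol in the platform annotation, 1801 several and 11777 none; after 62 control probe sets were set aside, 41091 single-gene probe sets gave 19775 genes, each read from its brightest probe set by mean log2 over the arrays (41037 were matched by Entrez ID). Symbols of the table were kept.

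All groups of an experiment entered 1 limma fit (limma 3.58.1, R 4.3.3; lmFit, contrasts.fit, eBayes), and the difference of the DAPT effects used both experiments. Calls are at a Benjamini-Hochberg adjusted p under 0.05 over all genes. The precision is limited by the number of arrays. The fit was tested on simulated data. Alternatives were median centring, a repeated quantile normalization, only the groups compared, other probe set choices, brighter genes only, an intensity trend, and each array left out.

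The 49 genes and the other lists were chosen with earlier results of these data known. The genes named with values per array were the 11 key genes of the list (STAT2 is not analysed here) and the members with the largest called changes; some others are named with their change or values. Plots come from Python 3.11.15 with matplotlib 3.10.9.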

Additional observations from a re-analysis of the deposited data

Results flagged for a closer look

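By limma's test of the difference, the effect of DAPT was called different between the antagonism and the agonism experiment in 2 genes. These are 4.17% of the 48, against 6.12% of all genes. IRF7 had a difference of -0.42 on the log2 scale, and OAS1 of -0.40. Both were higher with DAPT against DMSO in the agonism experiment, and neither passed with DAPT against control in the antagonism experiment. Both calls were lost when only the 4 groups of the contrast entered the fit. The causes of these differences were not tested.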

How the results depend on the processing

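No paired analysis was possible because the labels carry no replicate numbers. The counts of members below show how far calls moved with the setting. The share of all genes called moved as well and is mostly not given here, so these counts are no result about the members. Of the called members, 13 of 20 with A13 against IgG, 10 of 17 with JAG1-Fc beads against Fc beads, 5 of 11 with DAPT against DMSO, 6 of 9 with IgG against DAPT, 13 of 17 with IgG against DMSO, 19 of 29 with A13 against DMSO, 18 of 26 with A13 against DAPT and 18 of 26 with JAG1-Fc beads against DAPT were called in the same direction under every alternative that measured them and with any 1 array left out, and 0 of 2 were with Fc beads against IgG, as were 0 of 2 in the contrast between the DAPT effects. Without probe sets ending in _x_at and _s_at, which left 37 members, A13 against IgG had 10 lower and 1 higher, JAG1-Fc beads against Fc beads 8 lower, A13 against DMSO 11 lower, A13 against DAPT 10 lower and 3 higher, JAG1-Fc beads against DAPT 10 lower and 5 higher, DAPT against DMSO 4 higher and 2 lower, IgG against DAPT 3 higher, Fc beads against IgG 0 and 0, and the difference of the DAPT effects 1 lower. Of all genes, 775 were then called higher and 1087 lower with A13 against IgG (main 1124 and 1784). With JAG1-Fc beads against Fc beads, 359 were higher and 609 lower (main 587 and 1017). In that setting PARP9 turned to a change of 0.0233 for IgG against DAPT, 0.0057 for A13 against IgG, 0.131 against DMSO, 0.029 against DAPT and 0.0069 for JAG1-Fc beads against DAPT, and IFI44 to 0.0569 for JAG1-Fc beads against Fc beads, since another probe set was read. With only the groups compared, DAPT against DMSO had 4 higher, IgG against DMSO 3 lower, A13 against IgG 1 higher, and Fc beads against IgG and the difference of the DAPT effects 0. Median centring and repeated quantile normalization each gave 9 lower for IgG against DMSO and 4 and 5 higher in the contrast between the DAPT effects. Repeated quantile normalization gave 2 higher for DAPT against control and 2 lower for Fc beads against IgG. Of all genes, 101 were then higher for DAPT against control (main 40) and 200 lower for Fc beads against IgG (main 87). With genes above the median level, A13 against IgG had 1 higher, Fc beads against IgG 2 lower, the difference of the DAPT effects 4 higher and 4 lower, and the median change with JAG1-Fc beads was -0.22. An intensity trend gave 3 lower for Fc beads against IgG and 2 higher in the contrast between the DAPT effects. Median centring turned the split of all genes called higher and lower to 1867 and 2209 for DAPT against DMSO (main 2446 and 1643), 2602 and 2996 for IgG against DMSO (3548 and 2501), 1483 and 1386 for A13 against IgG (1124 and 1784), and 908 and 389 in the contrast between the DAPT effects (564 and 647). With repeated quantile normalization the split for A13 against IgG was 1646 and 1705, and for Fc beads against IgG 340 and 200 (324 and 87). With 1 array left out, the members called lower ranged from 15 to 18 with A13 and from 13 to 17 with JAG1-Fc beads, those higher with A13 from 0 to 2; DAPT against DMSO had 3 to 9 higher and 2 to 4 lower, IgG against DAPT 5 to 7 and 2 to 4, IgG against DMSO 11 to 17 and 3 to 5, Fc beads against IgG 0 to 2 and 0 to 1, DAPT against control 0 to 1 lower, and the difference of the DAPT effects 0 to 3 higher and 0 to 10 lower.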
